A study of Mus musculus with 15 samples.

Results

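Interferon-stimulated genes were followed in the colon of mice carrying a model of colitis-associated cancer. The set was a list of 45 gene names of known interferon-stimulated genes. The rule that finds them uses the name alone, but the list was drawn up with earlier results of these data known. Of the 45 names, 44 were found among the 56859 genes of the count table, and all 44 were among the 18038 genes with enough counts to be tested. The name not found was Ddx58, which encodes the RNA sensor RIG-I. The table instead listed Rigi, the newer symbol of that gene. Its values are given apart and enter no count of levels or calls below. Its promoter window, under the name Ddx58, is counted with those of the other listed genes.

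Interferons are cytokines that cells release when they sense viral nucleic acids or other danger, and they act through receptors that signal by JAK kinases and STAT transcription factors. Type I and type III interferons lead to the complex ISGF3, which contains STAT2 and IRF9 and binds the interferon-stimulated response element (ISRE). Interferon gamma, made mainly by T cells and NK cells, instead acts through the gamma-activated site (GAS). The induced genes encode sensors, transcription factors, antiviral effectors and parts of the antigen-presentation machinery, and in the gut both epithelial and immune cells express them.

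Total RNA of the whole colon was sequenced in 15 libraries from male C57BL/6J mice, 6 to 10 weeks old, in 5 groups of 3. The shared protocol gave every mouse azoxymethane (AOM), a colon carcinogen, at 10 mg/kg on day 0, followed by 2.5% dextran sulfate sodium (DSS), an agent that injures the colonic epithelium, in the drinking water on days 7 to 11, 28 to 32 and 49 to 53. Saline D27, saline D48 and saline D100 are groups with saline as the placebo, named by the day in the sample descriptions. The titles tie D48 to cycle 1 and D100 to cycle 2, which does not match the number of DSS periods that precede those days in the protocol. The APX3330 group received APX3330 (E3330 in the titles), a small molecule directed against the redox function of APE1/Ref-1, by intraperitoneal injection at 25 mg/kg once a day on the DSS days, and no day of sampling is given for it. A difference between APX3330 and a saline group can therefore hold a difference in day. The Control libraries are labelled as C57BL/6 wild type, and since the protocol names AOM for all mice, their treatment is not settled here. Nothing in the labels says that the 3 libraries of a group came from separate mice, and the p-values then reflect only how these libraries vary, which may be technical.

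Total counts ranged from 13548661 to 17919613 per library, and values are given as CPM (counts scaled to library size with TMM factors), in the order of replicates 1 to 3. D27, D48 and D100 stand for the saline groups. Epithelial markers were present in every library (7 markers, 8280 to 11331 CPM summed). Some libraries stood apart in transcripts of neighbouring tissue. Saline D48 replicates 2 and 3 had 32686 and 7963 CPM of summed exocrine pancreas markers, against 8.78 CPM or less in the other libraries. Summed markers of squamous epithelium reached 1135 and 542 CPM in Control replicates 1 and 3 and 849 CPM in saline D100 replicate 1 against at most 99.4 CPM elsewhere. Within groups the members moved together by library. Saline D48 replicate 1, without the pancreatic transcripts, was the lowest library of its group for 43 of the 44 members. Control replicate 2, without the squamous transcripts, was the lowest of its group for 34. In saline D100, replicates 2 and 3 were without the squamous transcripts, and replicate 2 was the lowest for 36 and replicate 3 the highest for 26. In the groups with no library set apart by such transcripts, saline D27 replicate 3 was the lowest for 34 and APX3330 replicate 2 for 35. The part of these transcripts in the levels of the members was not tested. Results are also given without the libraries that hold pancreatic or squamous transcripts.

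The sequences that the interferon-activated factors are known to bind were looked for in the promoters of the members, in RefSeq windows of GRCm38.p6 that run from 250 bases before to 50 bases after a start site. The ISRE was searched as GAAANNGAAA on both strands and the GAS as TTCNNNGAA, which reads the same on both strands. A window was at hand for 34 of the 45 listed genes, and 18 of the 34 (52.9%) held an ISRE match, against 3.99% of the 27025 genes with a window. A GAS match was found in 9 of the 34 (26.5%), against 9.55% of all genes. Both motifs occurred in 5 members, and 12 held neither. The stretches below are those of 8 members whose values are described in detail, with the matches in capitals.
Isg15: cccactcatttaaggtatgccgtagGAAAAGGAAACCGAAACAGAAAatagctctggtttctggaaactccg
Ifit1: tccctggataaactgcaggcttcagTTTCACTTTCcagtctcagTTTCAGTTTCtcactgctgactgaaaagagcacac
Rsad2: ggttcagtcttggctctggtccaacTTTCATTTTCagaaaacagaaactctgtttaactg
Gbp2: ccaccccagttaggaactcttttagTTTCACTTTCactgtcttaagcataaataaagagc
Irgm1: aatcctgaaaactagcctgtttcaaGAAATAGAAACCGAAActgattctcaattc
Oas1a: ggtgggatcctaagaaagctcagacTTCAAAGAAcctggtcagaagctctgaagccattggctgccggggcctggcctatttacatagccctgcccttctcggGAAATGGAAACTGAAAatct
Irf1: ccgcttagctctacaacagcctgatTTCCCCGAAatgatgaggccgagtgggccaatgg
Psmb8: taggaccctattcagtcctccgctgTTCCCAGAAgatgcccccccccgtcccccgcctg

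The Isg15 stretch (GRCm38.p6, chr4:156200850-156200921 on the minus strand) holds a run of GAAA units spaced by 2 bases, which counts as overlapping ISRE matches. The run in Irgm1 (chr11:48871421-48871475 on the minus strand) is of the same kind, and that in Oas1a (chr5:120907526-120907648 on the minus strand) lies close to the start site, with a GAS match farther upstream. In Ifit1 (chr19:34640760-34640838 on the plus strand) there are separate ISRE matches on the other strand, and Rsad2 (chr12:26456538-26456597 on the minus strand) and Gbp2 (chr3:142620579-142620638 on the plus strand) hold a single ISRE on the other strand. Irf1 (chr11:53769899-53769957 on the plus strand) and Psmb8 (chr17:34198073-34198131 on the plus strand) held a GAS match only. Of 28 ISRE matches in the members, 24 lay upstream of the start site, and of 10 GAS matches 9 did. In Bst2 a GAS match and an ISRE match overlap.

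**Figure D1:**
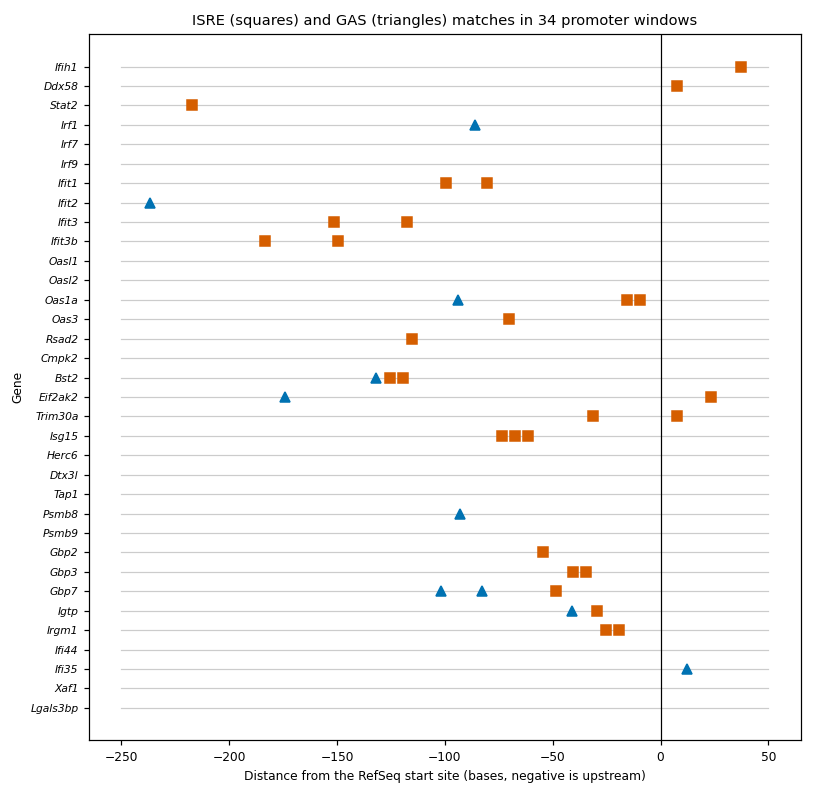
Positions of ISRE matches (squares) and GAS matches (triangles) in the promoter windows of the 34 listed genes with a window, Ddx58 among them. The x axis gives the distance from the RefSeq start site in bases, with 1 line per gene. Of the 28 ISRE matches 24 sit upstream of the start, all 5 guanylate-binding and immunity-related GTPase genes with a window hold one, and 12 members have no mark.

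By role, an ISRE match was found in 3 of the 4 IFIT genes, in 4 of 5 antiviral effector genes with a window, and in 5 of 5 genes of the guanylate-binding proteins and immunity-related GTPases. It was found in 1 of 4 transcription factor genes and in none of 3 genes of antigen processing, 4 genes of the remaining interferon-induced group and 1 gene of the PARP and DTX3L group. Psmb8 held the 1 GAS match of antigen processing. A match is a description of letters, and its absence says only that these letters are not in the window.

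Every one of the 44 members differed over the 5 groups (edgeR quasi-likelihood F test, adjusted over all genes tested at 0.05), where 37.3% of all 18038 genes did. The group mean was highest in saline D100 for 31 members, in saline D27 for 10 and in saline D48 for 3 (Irf1, Gbp2 and Iigp1). Control had the lowest mean for 37, and APX3330 for 6. Per kilobase of exon, the level over all groups was highest for Lgals3bp at 136.5 CPM per kb, followed by Ifi27l2a at 75.5, Isg15 at 57.5, Oas1a at 52.7 and Irf7 at 50.6. The count of 44 was 17 with a leukocyte score as a covariate, and the share over all genes was not computed for that fit.

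**Figure D2:**
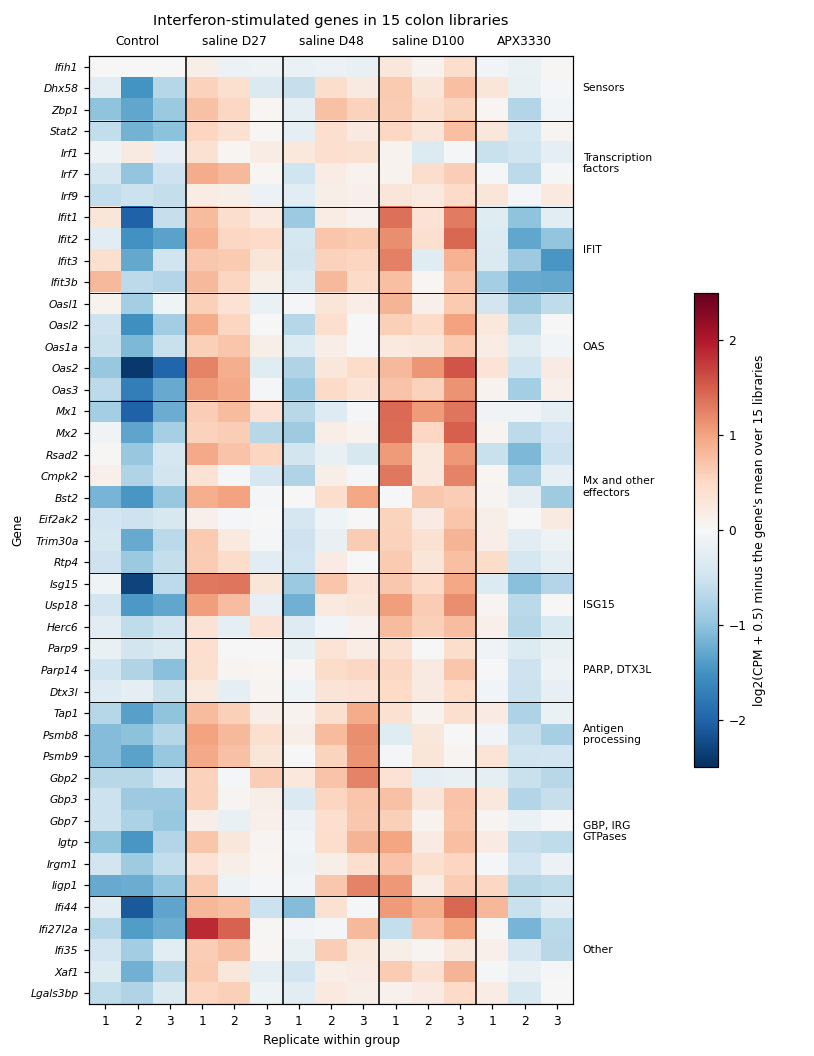
Level of each of the 44 members in each library, as log2(CPM + 0.5) minus the gene's mean over the 15 libraries, with genes in rows by role and libraries in columns by group and replicate. The Control columns are mostly blue, the saline D27 and D100 columns mostly red, saline D48 replicate 1 is paler or bluer than replicates 2 and 3, and the APX3330 columns lie in between.

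The saline groups against Control ask how far the genes are raised during the model. Of 44 members, 35 were higher in saline D27 (10.2% of all genes were called higher), 28 in saline D48 (14.3%) and 38 in saline D100 (11.4%), and none was lower by edgeR (9.36%, 13% and 10.5% of all genes were). At an unadjusted p below 0.05 none was lower either, nor by DESeq2. The median log2 fold change of the members was 1.06 at D27, 0.84 at D48 and 1.29 at D100, with medians over all genes of -0.0013, 0.0043 and 0.0045. Fold changes lay above 0 for 43 of 44 members in each (49.9%, 50.3% and 50.4% of all genes) and below 0 for 1 (50.1%, 49.7% and 49.6%). The libraries of the groups did not overlap, with the saline group higher, for 33 members at D27 (19.4% of all genes), 23 at D48 (21.4%) and 41 at D100 (20.2%). They did not overlap with the saline group lower for 1 member, Ifih1 at D48 (21.2% of all genes). All 3 comparisons share the Control libraries.

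In whole tissue, more or fewer cells of a type cannot be told apart from more or less RNA per cell. Leukocyte transcripts moved in the same comparisons. The summed level of 8 leukocyte markers was 158 to 187 CPM in Control. It was 394 to 560 at D27, then 386 to 1174 at D48, then 369 to 454 at D100, and 229 to 347 with APX3330. All 8 were called higher than in Control at D27 and D48, 6 at D100 and none with APX3330. With a score of these markers as a covariate, 0 members were called higher at D27 (0.621% of all genes), 0 at D48 (0.449%) and 10 at D100 (3.43%), and the median log2 fold changes of the members were 0.72, 0.44 and 0.99. The score ran from -1.45 to -1.19 in Control and from 0.06 to 2.21 in the saline libraries. With no overlap in the score, this fit cannot separate the score from the group, and no conclusion is drawn from it. Macrophage markers (7 genes) summed to 282 to 366 CPM in Control and 603 to 1265 in the saline libraries, and T cell markers (6 genes) to 10.7 to 15.2 in Control and 34.5 to 113 in the saline libraries. Neutrophil markers (5 genes) did not follow at D27 and D100. They summed to 103 to 138 CPM in Control, 111 to 123 at D27 and 138 to 155 at D48. At D100 the sum was 49.4 to 82.1 CPM, and with APX3330 it was 23.2 to 63.3. None of these markers was at 0 throughout a group. Markers of other cell types moved too. Goblet cell markers (4 genes) summed to 8248 to 9115 CPM in Control, 23622 to 78607 in the saline libraries and 44600 to 74681 with APX3330. Smooth muscle markers (6 genes) summed to 9962 to 10231 CPM in Control and 4928 to 5868 at D48, and skeletal muscle markers to 1763 and 794 CPM in Control replicates 1 and 3 and at most 26.4 elsewhere. The part of the goblet and muscle transcripts in the results was not tested.

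Libraries weighed on these counts as well. Without Control replicates 1 and 3 and saline D100 replicate 1, which hold squamous transcripts, 16 members were higher at D27, 17 at D48 and 25 at D100, with medians of 1.60, 1.33 and 1.61. The shares called higher over all genes fell as well, to 1.07%, 3.07% and 2.43%. Without saline D48 replicates 2 and 3, which hold pancreatic transcripts, the median at D48 was 0.28. The first of these fits keeps Control replicate 2 alone, and the second keeps saline D48 replicate 1 alone. These were the lowest libraries of their groups for 34 and 43 members. Leaving out 1 library at a time gave 25 to 35 members at D27 (5.45% to 9.39% of all genes). It gave 17 to 33 at D48 (10.2% to 11.8%) and 34 to 39 at D100 (7.33% to 9.42%). At D48 the count was 18 without Control replicate 2, 17 without saline D48 replicate 3, and 19 without Control replicate 3 or saline D48 replicate 2.

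**Figure D3:**
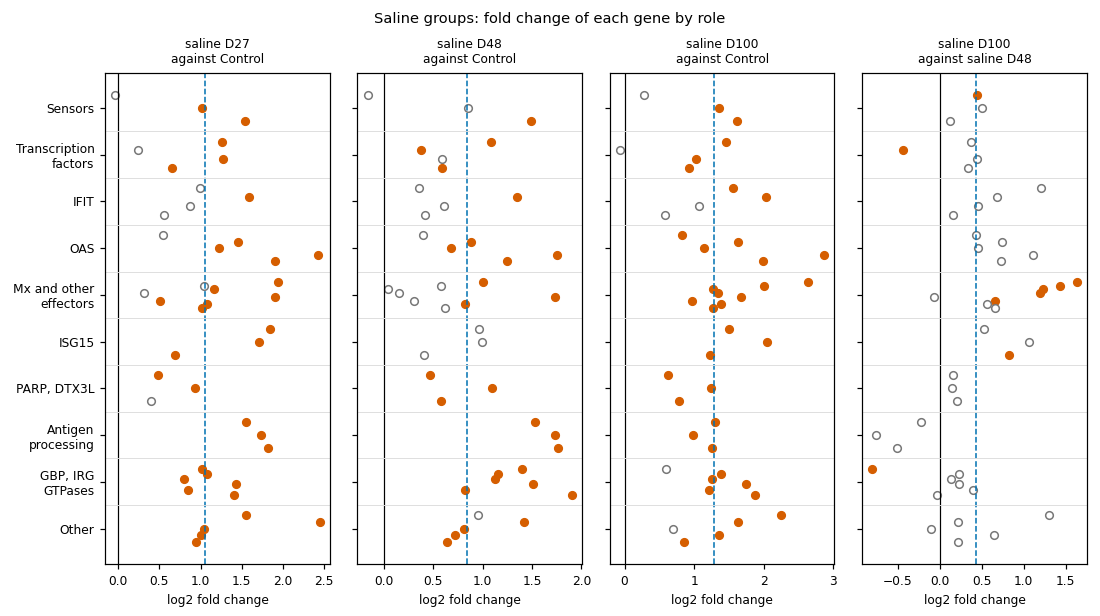
Log2 fold change of each of the 44 members by role, for the saline groups against Control and for saline D100 against saline D48, with filled points called at an adjusted p below 0.05, open points not called, the solid line at 0 and the dashed line at the members' median. Nearly all points of the comparisons with Control lie right of 0, while in saline D100 against saline D48 the antigen-processing genes and Gbp2 lie left of it.

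Of the sensors, Zbp1, which binds nucleic acids in the Z conformation and can start necroptosis, had 36.7, 29.9 and 38.7 CPM in Control, 123, 106 and 77.0 at D27, then 63.3, 123 and 111 at D48, then 114, 98.2 and 109 at D100 and 76.0, 44.5 and 70.2 with APX3330. No Control library reached the lowest saline library. Zbp1 rose by 1.54 ± 0.24 (adjusted p = 0.000685) at D27, by 1.49 ± 0.24 (adjusted p = 0.000398) at D48 and by 1.61 ± 0.24 (adjusted p = 0.000255) at D100, where each change is on the log2 scale with its SE. Ifih1, which encodes the long double-stranded RNA sensor MDA5, had 102, 102 and 102 CPM in Control, 112, 92.8 and 94.0 at D27, then 90.9, 92.2 and 90.0 at D48, then 124, 109 and 139 at D100 and 97.3, 91.1 and 105 with APX3330. The saline D48 libraries lay below all Control libraries, and Ifih1 was not called against Control in any group. Dhx58, which encodes the regulator LGP2, rose by 1.02 ± 0.31 (adjusted p = 0.0303) at D27 and 1.35 ± 0.31 (adjusted p = 0.0058) at D100, with 0.85 ± 0.31 (adjusted p = 0.0515) at D48. Rigi, at 19.2 to 37.1 CPM in Control and 60.8 to 70.9 CPM in saline D100, rose by 0.78 ± 0.26 (adjusted p = 0.0467), 0.77 ± 0.26 (adjusted p = 0.0383) and 1.23 ± 0.26 (adjusted p = 0.00363) in the order of day.

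The transcription factor genes ranged from steady to strongly raised. Irf9, the DNA-binding part of ISGF3, had 57.5, 61.1 and 58.5 CPM in Control, 101, 98.1 and 80.3 at D27, then 72.6, 97.2 and 96.2 at D48, then 109, 105 and 123 at D100 and 109.7, 86.7 and 104 with APX3330. All of the saline and APX3330 libraries exceeded the Control libraries. Irf9 rose by 0.66 ± 0.13 (adjusted p = 0.00252), 0.59 ± 0.13 (adjusted p = 0.00299) and 0.93 ± 0.13 (adjusted p = 0.00013) at D27, D48 and D100. Stat2, its partner, had 72.3, 48.4 and 53.7 CPM in Control, 161, 145 and 113 at D27, then 93.2, 148 and 129 at D48, then 158, 136 and 187 at D100 and 135, 81.8 and 115 with APX3330, again with no overlap with Control, and rose by 1.26 ± 0.21 (adjusted p = 0.00114), 1.08 ± 0.21 (adjusted p = 0.00163) and 1.46 ± 0.21 (adjusted p = 0.000226). Irf7, the factor that amplifies type I interferon production, had 133, 89.3 and 124 CPM in Control, 341, 314 and 184 at D27, then 126, 203 and 189.9 at D48, then 189, 241 and 275 at D100 and 172, 113 and 172 with APX3330. Saline D27 replicates 1 and 2 were the highest and saline D48 replicate 1 fell among the Control libraries. Irf7 rose by 1.28 ± 0.24 (adjusted p = 0.00258) at D27 and 1.02 ± 0.24 (adjusted p = 0.00724) at D100, and the change at D48 was 0.58 ± 0.24 (adjusted p = 0.0857). Irf1, a factor that interferon gamma induces through its GAS, had 123, 157 and 117 CPM in Control, 176, 139.9 and 153 at D27, then 161, 179 and 175 at D48, then 143, 106 and 130.0 at D100 and 91.2, 95.2 and 114 with APX3330. The groups overlapped at D27 and D100, and the rise of 0.38 ± 0.14 (adjusted p = 0.0497) at D48 was the only call of Irf1 against Control.

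IFIT proteins bind viral RNA and block its translation. Ifit2 had 21.0, 8.69 and 9.85 CPM in Control, 46.8, 36.6 and 35.7 at D27, then 18.7, 41.9 and 40.4 at D48, then 57.9, 33.7 and 70.0 at D100 and 20.1, 10.1 and 12.7 with APX3330. The lowest library of saline D48 lay among the Control libraries, while those of D27 and D100 lay above all of them. Ifit2 rose by 1.59 ± 0.37 (adjusted p = 0.00802), 1.35 ± 0.37 (adjusted p = 0.0136) and 2.03 ± 0.37 (adjusted p = 0.00135). Ifit1, which recognises RNA whose cap lacks the host methylation, had 45.4, 8.62 and 24.4 CPM in Control, 63.7, 49.5 and 43.4 at D27, then 19.2, 41.6 and 39.4 at D48, then 95.2, 46.8 and 90.4 at D100 and 29.3, 17.9 and 30.1 with APX3330. Control was spread widely, and the only call was the rise of 1.56 ± 0.44 (adjusted p = 0.0184) at D100. Ifit3, a partner that stabilises IFIT1 on RNA, had 17.8, 5.26 and 9.39 CPM in Control, 21.7, 21.3 and 16.7 at D27, then 9.59, 20.3 and 19.8 at D48, then 32.9, 10.8 and 24.8 at D100 and 10.3, 6.93 and 4.56 with APX3330. None of the 10 comparisons of 2 groups called Ifit3, and its adjusted p over the 5 groups was 0.0388. Ifit3b had 12.5, 4.16 and 3.93 CPM in Control, 12.5, 10.3 and 7.69 at D27, then 5.29, 12.5 and 9.81 at D48, then 11.9, 7.18 and 11.7 at D100 and 3.58, 2.60 and 2.55 with APX3330, with Control replicate 1 as high as the saline libraries and no call against Control. Ifit3 shares 51.2% of its exon sequence, in stretches of 50 bases, with other genes and Ifit3b shares 45%, chiefly with each other, so reads of the pair may be split between them.

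The OAS proteins make the oligoadenylates that activate RNase L. Oas1a had 63.7, 42.8 and 63.8 CPM in Control, 142, 152 and 104 at D27, then 74.1, 106 and 93.3 at D48, then 112, 115 and 149 at D100 and 107, 76.4 and 90.2 with APX3330. Every saline and APX3330 library exceeded the Control libraries. It rose by 1.23 ± 0.19 (adjusted p = 0.000718), 0.68 ± 0.19 (adjusted p = 0.0145) and 1.14 ± 0.19 (adjusted p = 0.000645) in the order of day. Oas1a shares 57.6% of its 50-base stretches with Oas1g, Oas1b or another gene, so its counts are uncertain. Oas2 had 27.5, 9.57 and 13.1 CPM in Control, 127, 99.8 and 42.9 at D27, then 31.5, 65.2 and 73.1 at D48, then 94.5, 115 and 159 at D100 and 67.8, 37.6 and 61.2 with APX3330, with no saline or APX3330 library as low as Control, and its rise at D100 of 2.87 ± 0.44 (adjusted p = 0.000344) had the largest fold change of any member. Oas2 rose by 2.42 ± 0.44 (adjusted p = 0.00178) at D27 and 1.75 ± 0.43 (adjusted p = 0.00709) at D48. Oasl2, an OAS-like protein, had 110.1, 53.8 and 86.1 CPM in Control, 298, 227 and 158 at D27, then 96.2, 209.5 and 157 at D48, then 238, 221 and 316 at D100 and 189, 104 and 157 with APX3330. Saline D48 replicate 1 fell among the Control libraries. Oasl2 rose by 1.45 ± 0.31 (adjusted p = 0.00511), 0.89 ± 0.31 (adjusted p = 0.0442) and 1.63 ± 0.31 (adjusted p = 0.00182). Oasl1, which in mice restrains the translation of Irf7, had 53.5, 27.5 and 46.2 CPM in Control, 75.6, 64.6 and 44.7 at D27, then 49.0, 61.8 and 56.4 at D48, then 90.5, 55.1 and 79.5 at D100 and 36.4, 26.7 and 32.2 with APX3330. Only saline D100 lay clear of Control, with a rise of 0.82 ± 0.24 (adjusted p = 0.0205). Oas3 rose in all 3 saline groups (log2 fold changes of 1.90, 1.25 and 1.98).

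Among the antiviral effectors, Mx1 had the largest F statistic of all members. Mx1 encodes a dynamin-like GTPase directed against influenza viruses, and C57BL/6 mice, like most inbred strains, carry a defective allele of it. Mx1 had 11.2, 4.67 and 8.45 CPM in Control, 31.6, 35.9 and 26.6 at D27, then 12.6, 16.4 and 20.1 at D48, then 55.6, 43.7 and 52.8 at D100 and 19.3, 19.4 and 17.4 with APX3330. Every library of the other 4 groups exceeded the Control libraries, and the 3 saline D100 libraries exceeded all others. Mx1 rose by 1.95 ± 0.24 (adjusted p = 0.000157) at D27, 1.01 ± 0.24 (adjusted p = 0.00604) at D48 and 2.64 ± 0.24 (adjusted p = 6.69e-06) at D100. Mx2, its neighbour on chromosome 16, had 4.63, 1.68 and 2.53 CPM in Control, 7.58, 7.85 and 2.85 at D27, then 2.45, 5.6 and 5.23 at D48, then 13.7, 7.31 and 14.82 at D100 and 5.20, 2.93 and 3.42 with APX3330. Levels were low throughout, with saline D100 the highest group. It rose by 2.01 ± 0.45 (adjusted p = 0.00527) at D100, where no library overlapped with Control, and was not called at D27 or D48.

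Rsad2 encodes viperin, an enzyme that makes a chain-terminating nucleotide, and lies beside Cmpk2, a mitochondrial nucleotide kinase gene, on chromosome 12 (26442746 to 26456452 and 26469204 to 26479837, GENCODE M21, GRCm38). Rsad2 had 20.4, 10.2 and 14.7 CPM in Control, 38.9, 33.1 and 29.3 at D27, then 14.4, 17.5 and 14.9 at D48, then 42.3, 24.1 and 43.0 at D100 and 13.4, 8.94 and 13.5 with APX3330. Saline D27 and D100 lay above Control and saline D48 lay within its range. Rsad2 rose by 1.16 ± 0.25 (adjusted p = 0.00514) at D27 and 1.27 ± 0.25 (adjusted p = 0.00222) at D100, with 0.04 ± 0.25 (adjusted p = 0.919) at D48. Cmpk2 had 25.8, 13.7 and 17.0 CPM in Control, 30.3, 22.8 and 17.4 at D27, then 13.8, 26.1 and 23.1 at D48, then 59.8, 28.3 and 56.3 at D100 and 24.4, 12.6 and 20.4 with APX3330, and saline D100 replicates 1 and 3 stood far above the rest. It rose by 1.35 ± 0.33 (adjusted p = 0.00849) at D100 and was not called at D27 or D48. Eif2ak2, which encodes the double-stranded RNA-activated kinase PKR, had 51.2, 49.4 and 54.1 CPM in Control, 78.3, 70.0 and 71.3 at D27, then 52.9, 66.4 and 71.9 at D48, then 105, 82.9 and 116 at D100 and 79.4, 71.3 and 83.7 with APX3330. Its spread within groups was small, and it rose by 0.51 ± 0.13 (adjusted p = 0.0115) at D27 and 0.97 ± 0.13 (adjusted p = 9.77e-05) at D100. Bst2, which encodes the virion tether tetherin, rose by 1.90, 1.73 and 1.67 in the order of day, and Trim30a by 1.08, 0.82 and 1.38. Rtp4 rose by 1.02 at D27 and 1.28 at D100.

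Isg15, a ubiquitin-like protein that is joined to other proteins during the response, had 33.1, 6.72 and 22.5 CPM in Control, 89.5, 90.8 and 44.1 at D27, then 18.5, 58.1 and 45.8 at D48, then 57.1, 50 and 69.8 at D100 and 28.0, 17.0 and 21.2 with APX3330. Saline D27 replicates 1 and 2 were the highest, and Control replicate 1 lay above saline D48 replicate 1. It rose by 1.84 ± 0.46 (adjusted p = 0.0113) at D27 and 1.5 ± 0.46 (adjusted p = 0.0278) at D100, with 0.97 ± 0.45 (adjusted p = 0.128) at D48. Herc6, the main ligase for ISG15 in mice, had 10.0, 7.67 and 8.45 CPM in Control, 15.9, 10.3 and 15.9 at D27, then 9.73, 11.6 and 13.3 at D48, then 21.5, 18.8 and 21.2 at D100 and 13.4, 7.27 and 9.24 with APX3330. The D27 and D100 libraries lay above all Control libraries. It rose by 0.69 ± 0.22 (adjusted p = 0.0416) at D27 and 1.23 ± 0.22 (adjusted p = 0.00118) at D100. Usp18, which removes ISG15 from proteins and dampens the type I receptor, rose by 1.71 at D27 and 2.05 at D100. None of the 3 was called at D48.

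Parp14, an ADP-ribosyltransferase, had 96.7, 81.1 and 66.6 CPM in Control, 181, 143 and 143 at D27, then 139.9, 188 and 196 at D48, then 197, 160.1 and 222 at D100 and 136, 96.2 and 126 with APX3330. Every saline library exceeded the Control libraries, and Parp14 rose by 0.93 ± 0.18 (adjusted p = 0.00228), 1.10 ± 0.18 (adjusted p = 0.000417) and 1.24 ± 0.18 (adjusted p = 0.000185). Dtx3l, a ubiquitin ligase that pairs with PARP9, had 79.1, 85.2 and 66.8 CPM in Control, 117, 84.9 and 104 at D27, then 92.3, 124 and 128 at D48, then 141, 116 and 139 at D100 and 94.3, 68.4 and 85.5 with APX3330. It rose by 0.58 ± 0.15 (adjusted p = 0.0117) at D48 and 0.78 ± 0.15 (adjusted p = 0.00227) at D100, and the groups overlapped at D27. Parp9 rose by 0.49, 0.46 and 0.62 in the order of day. Parp9 and Dtx3l overlap on opposite strands over 9.4% and 8% of their exon bases. Reads there cannot be told apart if counting ignored the strand, which is not given. The same limit holds for other members, such as Ifi35 (16.8%) and Psmb8 (14.7%), and for Psmb9 and Tap1, which overlap each other (5.79% and 3.87%).

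The genes of antigen processing were higher than in Control in all 3 saline groups. Psmb8 and Psmb9 encode catalytic subunits of the immunoproteasome, and Tap1 encodes part of the peptide transporter that loads MHC class I. Psmb8 had 11.4, 11.8 and 14.7 CPM in Control, 49.8, 43.4 and 32.5 at D27, then 27.3, 42.8 and 55.5 at D48, then 19.9, 29.9 and 24.6 at D100 and 23.2, 16.2 and 13.7 with APX3330. All saline libraries exceeded Control, and saline D100 was the lowest of the 3 groups. Psmb8 rose by 1.73 ± 0.26 (adjusted p = 0.000538), 1.73 ± 0.26 (adjusted p = 0.000255) and 0.98 ± 0.26 (adjusted p = 0.0133) in the order of day. Psmb9 had 19.7, 16.7 and 22.0 CPM in Control, 82.6, 70.9 and 52.9 at D27, then 42.7, 62.6 and 93.1 at D48, then 41.8, 52.9 and 44.8 at D100 and 53.9, 30.1 and 30.5 with APX3330, again with every saline library above Control, and rose by 1.82 ± 0.27 (adjusted p = 0.000538), 1.77 ± 0.27 (adjusted p = 0.000311) and 1.26 ± 0.27 (adjusted p = 0.00385). Tap1 had 62.8, 40.2 and 51.2 CPM in Control, 179, 158 and 117 at D27, then 111, 137 and 197 at D48, then 135, 109.5 and 137 at D100 and 119.8, 60.4 and 92.5 with APX3330. All saline libraries exceeded Control, while APX3330 replicate 2 lay within its range. It rose by 1.56 ± 0.25 (adjusted p = 0.000902), 1.53 ± 0.25 (adjusted p = 0.000508) and 1.31 ± 0.25 (adjusted p = 0.00177).

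Guanylate-binding proteins and immunity-related GTPases attack the vacuoles of intracellular pathogens. All 6 were higher at D27 and D48 and 5 at D100. Gbp2 had 38.5, 38.6 and 46.4 CPM in Control, 92.8, 61.5 and 95.9 at D27, then 75.4, 103 and 148 at D48, then 80.0, 52.3 and 54.6 at D100 and 52.5, 42.1 and 38.5 with APX3330. Saline D48 replicate 3 was the highest library, and every saline library exceeded Control. Gbp2 rose by 1.02 ± 0.23 (adjusted p = 0.00674) at D27 and 1.40 ± 0.23 (adjusted p = 0.000532) at D48, with 0.60 ± 0.23 (adjusted p = 0.0774) at D100. Irgm1, a regulator of the family and of autophagy, had 56.2, 42.2 and 51.5 CPM in Control, 102, 87.2 and 81.7 at D27, then 71.6, 87.1 and 106 at D48, then 129, 103 and 115 at D100 and 76.1, 56.4 and 70.9 with APX3330. Saline D100 replicates 1 and 3 were the highest libraries. It rose by 0.85 ± 0.15 (adjusted p = 0.00179), 0.82 ± 0.15 (adjusted p = 0.00124) and 1.21 ± 0.15 (adjusted p = 8e-05), with no overlap with Control in any saline group. Gbp7 had 19.6, 16.1 and 14.6 CPM in Control, 31.9, 24.9 and 30.9 at D27, then 25.8, 38.3 and 45.6 at D48, then 43.5, 30.1 and 46.5 at D100 and 29.9, 25.2 and 27.4 with APX3330. Every library outside Control exceeded it, and Gbp7 rose by 0.80 ± 0.20 (adjusted p = 0.012), 1.12 ± 0.20 (adjusted p = 0.000932) and 1.25 ± 0.20 (adjusted p = 0.000498). Gbp3 (1.08, 1.16 and 1.39), Igtp (1.43, 1.51 and 1.74) and Iigp1 (1.40, 1.90 and 1.87) rose at D27, D48 and D100.

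Of the other members, Ifi27l2a, a small interferon-induced membrane protein, had 16.6, 10.2 and 11.4 CPM in Control, 102, 77.9 and 28.2 at D27, then 26.3, 26.9 and 48.8 at D48, then 18.1, 45.4 and 55.2 at D100 and 28.1, 12.1 and 17.2 with APX3330. Saline D27 replicates 1 and 2 stood above all other libraries. It rose by 2.44 ± 0.47 (adjusted p = 0.00274) at D27, 1.42 ± 0.47 (adjusted p = 0.0339) at D48 and 1.63 ± 0.47 (adjusted p = 0.0204) at D100. Lgals3bp, a secreted galectin-binding glycoprotein, had 241, 222 and 292 CPM in Control, 546, 567 and 343 at D27, then 311, 445 and 415 at D48, then 406, 433 and 523 at D100 and 426, 283 and 379 with APX3330. Every saline library exceeded Control, and it rose by 0.95 ± 0.20 (adjusted p = 0.00437), 0.64 ± 0.20 (adjusted p = 0.0262) and 0.85 ± 0.20 (adjusted p = 0.00642). Ifi35 rose by 1.04 at D27 and 0.81 at D48, and Ifi44 by 1.56 at D27 and 2.25 at D100. Xaf1 rose by 1.01, 0.72 and 1.36 in the order of day.

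Single calls against Control were repeated without each of the 6 libraries in turn for part of the members. Of 22 calls at D27, 18 held in every fit. Isg15 was lost without saline D27 replicate 2 (adjusted p = 0.051), Eif2ak2 without saline D27 replicate 1 (0.0503), Gbp7 without Control replicate 3 (0.0565) and Herc6 in 5 of 6 fits (up to 0.138), all but that without saline D27 replicate 2. Of 19 calls at D48, 12 held. Irf1 was lost in 5 of 6 fits (adjusted p of up to 0.174), all but that without Control replicate 2. Ifit2 (0.0635) and Oasl2 (0.202) were lost without Control replicate 2 or 3 or saline D48 replicate 2 or 3, and Lgals3bp (0.0946) without Control replicate 1 or 2 or saline D48 replicate 2 or 3. Oas1a was lost without Control replicate 2 or saline D48 replicate 2 (0.0671), Dtx3l without Control replicate 3 or saline D48 replicate 3 (0.0573), and Ifi27l2a without Control replicate 2 or 3 or saline D48 replicate 3 (0.148). Of 26 calls at D100, 21 held. Ifit1 was lost without Control replicate 3 or saline D100 replicate 1 or 3 (0.0668), Oasl1 without Control replicate 2 or saline D100 replicate 1 or 3 (0.0844), Isg15 without Control replicate 2 or 3 or saline D100 replicate 1 or 3 (0.0898), Psmb8 without Control replicate 1 or saline D100 replicate 2 (0.0645) and Ifi27l2a without Control replicate 2 or 3 or saline D100 replicate 2 or 3 (0.0938).

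**Figure D4:**
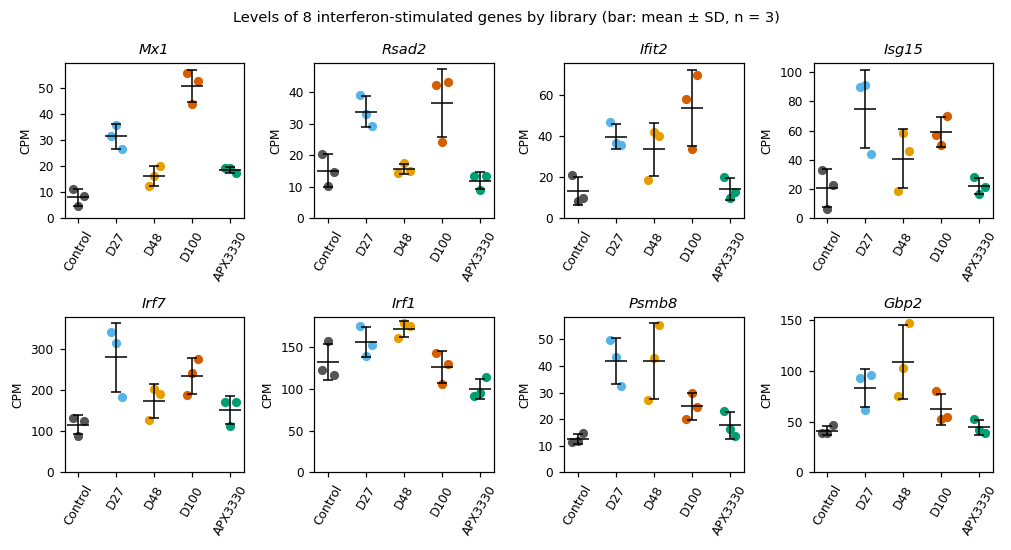
CPM of 8 members in each library by group, with 1 point per library and a bar for the mean ± SD (n = 3). Mx1 and Rsad2 dip at saline D48, Psmb8 and Gbp2 are highest at saline D27 or D48, and the APX3330 points of Ifit2, Isg15, Irf1 and Gbp2 sit near or below the Control points.

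Between the saline days few members were called. From D48 to D100, 7 of 44 rose (7.2% of all genes), namely Mx1 by 1.63 ± 0.23 (adjusted p = 0.000645), Mx2 by 1.43 ± 0.44 (adjusted p = 0.042), Rsad2 by 1.23 ± 0.25 (adjusted p = 0.00564), Cmpk2 by 1.19 ± 0.33 (adjusted p = 0.0252), Herc6 by 0.83 ± 0.22 (adjusted p = 0.0213), Eif2ak2 by 0.66 ± 0.13 (adjusted p = 0.00372) and Ifih1 by 0.44 ± 0.10 (adjusted p = 0.00823). In the values above, the libraries of these 7 genes did not overlap between D48 and D100. Another 2 fell, which is 4.55% of the members and no more than the 6.4% of all genes, Gbp2 by 0.80 ± 0.23 (adjusted p = 0.0293) and Irf1 by 0.44 ± 0.14 (adjusted p = 0.041). Gbp2 and Irf1 were highest at D48, and the Gbp2 libraries overlapped between the days. The groups did not overlap for 17 members with D100 higher (16.7% of all genes) and 1 with D100 lower (15.9%). The median over the members was 0.43, and all 3 antigen-processing genes had values below 0 with no call (-0.75 for Psmb8, -0.51 for Psmb9 and -0.22 for Tap1).

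Mx1, Rsad2, Eif2ak2 and Ifih1 kept these calls without each library in turn, with an adjusted p of up to 0.0491. Mx2 and Irf1 lost theirs in 5 of 6 fits (up to 0.139 and 0.165), Mx2 in all but that without saline D100 replicate 2 and Irf1 in all but that without saline D100 replicate 1. Cmpk2 was lost without saline D48 replicate 1 or 3 or saline D100 replicate 1 or 3 (0.0927), Herc6 without saline D48 replicate 1 or 2 or saline D100 replicate 1 or 3 (0.0829), and Gbp2 without saline D48 replicate 3 or saline D100 replicate 2 or 3 (0.144). Without the libraries holding pancreatic transcripts, which leaves saline D48 replicate 1 alone, the median was 0.84. That library was the lowest of its group for 43 members. Without the libraries holding squamous transcripts 4 members were higher (3.63% of all genes) and 2 lower, which is near the share of all genes (3.34%). With no filter on low counts 21 were higher (3.72% of all genes) and 4 lower (4.85%).

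From D27 to D48 the only call was the fall of Rsad2, by 1.12 ± 0.25 (adjusted p = 0.0382) (0.499% of all genes were lower). Its 3 libraries at D48 lay below all 3 at D27. The call was lost when any of the 6 libraries was left out (adjusted p of up to 0.129). No member rose by edgeR (0.854% of all genes), by DESeq2 (2.21%) or at an unadjusted p below 0.05. At that unadjusted threshold 5 were lower, and the share over all genes was not computed. Groups did not overlap, with D48 lower, for 4 members, which is no more than the share of all genes (9.77%). The median was -0.19. Without saline D48 replicates 2 and 3, which leaves only replicate 1 in that group, the median was -0.69. From D27 to D100 no member was called by edgeR (1.63% of all genes were higher and 1.45% lower). DESeq2 called 3 higher (3.94% of all genes) and 1 lower (3.11%), which is near those shares. At an unadjusted p below 0.05, 10 were higher and 3 lower, and the share over all genes was not computed. The median was 0.28. Groups did not overlap for 6 members with D100 higher, which is near the share of all genes (13.3%), and 1 with D100 lower (12.6%).

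APX3330 was compared with each saline group, to ask whether the genes stood lower in treated mice. APX3330 against saline D27 gave 10 of 44 members lower (4.37% of all genes), against saline D48 9 (10.3%) and against saline D100 5 (0.2%). None was higher by edgeR or DESeq2 in any of the 3, where 4.71%, 9.41% and 0.305% of all genes were, and at an unadjusted p below 0.05 the numbers higher were 0, 1 and 0. The median log2 fold changes were -0.65, -0.38 and -0.76, with medians over all genes of -0.0079, -0.0086 and -0.0048. Values below 0 were found for 42 of 44 members against D27, 37 against D48 and 44 against D100 (50.9%, 50.8% and 50.8% of all genes). The APX3330 libraries lay below all saline libraries for 17 members at D27 (15.3% of all genes), 7 at D48 (16.6%) and 30 at D100 (8.78%), and above them for none (13.9%, 17.5% and 8.22%). The 7 at D48 are no more than the share of all genes. The 3 comparisons share the APX3330 libraries.

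**Figure D5:**
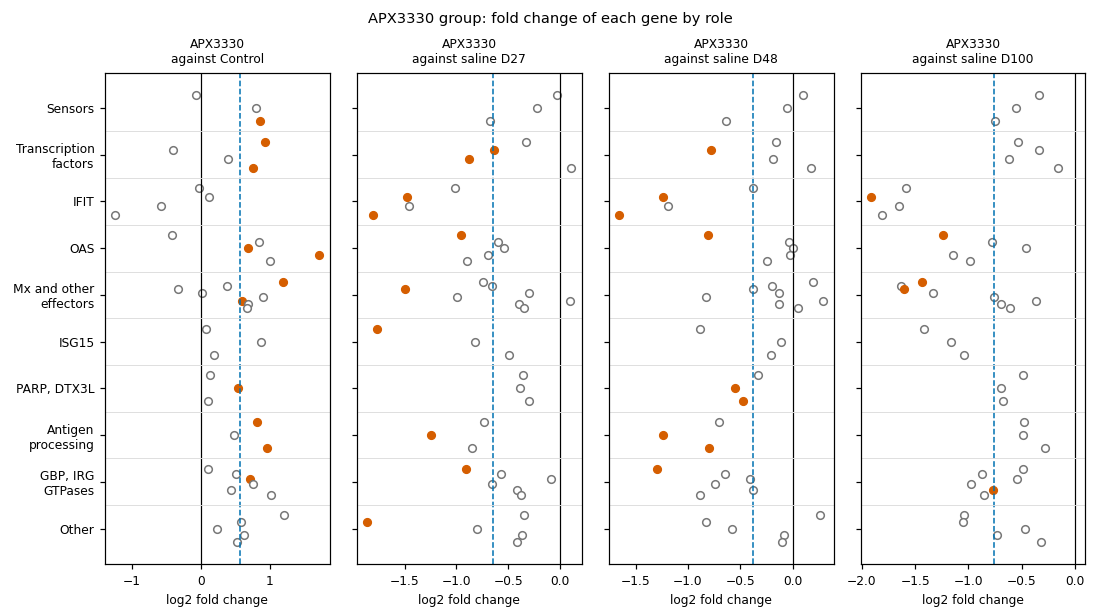
Log2 fold change of each of the 44 members by role for APX3330 against Control and against each saline group, with filled points called at an adjusted p below 0.05, open points not called, the solid line at 0 and the dashed line at the members' median. Most points lie right of 0 against Control and left of it against saline, and the IFIT genes have the lowest median of any role against saline D100.

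Against D27 and against D48, in this order and with the values of the 2 comparisons side by side, Irf1 fell by 0.64 ± 0.14 (adjusted p = 0.0131) and 0.78 ± 0.14 (adjusted p = 0.00145). Every APX3330 library of Irf1 lay below all D27 and D48 libraries. Ifit2 fell by 1.47 ± 0.37 (adjusted p = 0.0248) and 1.24 ± 0.37 (adjusted p = 0.0286), with APX3330 replicate 1 overlapping saline D48 replicate 1. Ifit3b fell by 1.80 ± 0.43 (adjusted p = 0.0204) and 1.66 ± 0.43 (adjusted p = 0.0141), Oasl1 by 0.96 ± 0.24 (adjusted p = 0.0239) and 0.81 ± 0.24 (adjusted p = 0.0261), and Gbp2 by 0.91 ± 0.23 (adjusted p = 0.0254) and 1.29 ± 0.23 (adjusted p = 0.00164). Psmb8 fell by 1.24 ± 0.25 (adjusted p = 0.0111) and 1.24 ± 0.25 (adjusted p = 0.00351).

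The other members lower than in saline D27 were Rsad2 by 1.5 ± 0.25 (adjusted p = 0.00616), Isg15 by 1.76 ± 0.46 (adjusted p = 0.0276), Ifi27l2a by 1.86 ± 0.46 (adjusted p = 0.0237) and Irf7 by 0.88 ± 0.24 (adjusted p = 0.0361). None of their APX3330 libraries overlapped with saline D27. Those lower than in saline D48 were Psmb9 by 0.80 ± 0.26 (adjusted p = 0.0429), Parp14 by 0.55 ± 0.17 (adjusted p = 0.0366) and Dtx3l by 0.47 ± 0.15 (adjusted p = 0.0414). The Psmb9 and Dtx3l libraries overlapped between these groups, and those of Parp14 did not.

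Against saline D100 the fold changes of the IFIT genes were the lowest of all roles, with a median of -1.73. Ifit2 fell by 1.91 ± 0.37 (adjusted p = 0.037), the largest difference of any member from saline D100. Rsad2 fell by 1.61 ± 0.25 (adjusted p = 0.0176), Mx1 by 1.44 ± 0.23 (adjusted p = 0.0176), Oasl1 by 1.24 ± 0.24 (adjusted p = 0.037) and Irgm1 by 0.77 ± 0.15 (adjusted p = 0.0406). For all 5, each APX3330 library lay below each saline D100 library. Ifit2, Oasl1 and Rsad2 were lower than in saline D27 as well, while Mx1 differed from saline D27 by -0.75 ± 0.23 (adjusted p = 0.0521) and Irgm1 by -0.41 ± 0.15 (adjusted p = 0.0976). Members with large differences and no call were Ifit3b at -1.81 ± 0.43 (adjusted p = 0.0717), Ifit3 at -1.65 ± 0.45 (adjusted p = 0.112), Mx2 at -1.63 ± 0.44 (adjusted p = 0.117) and Ifit1 at -1.59 ± 0.44 (adjusted p = 0.121).

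For 6 members, Irf1, Ifit1, Ifit3, Ifit3b, Oasl1 and Rsad2, the APX3330 mean was lower than that of Control too. For 31 of 44 the APX3330 mean lay between Control and all 3 saline means, which is a description with no test. Compared with Control, 11 of 44 were higher with APX3330 (7.16% of all genes) and 0 lower by edgeR (8.18%). DESeq2 called 2 lower, which is no more than the share of all genes (9.66%). At an unadjusted p below 0.05, 2 were lower, and the share over all genes was not computed. The median was 0.57 (0.0153 over all genes), and 37 of 44 values lay above 0 (51.7% of all genes) and 7 below (48.3%). The libraries did not overlap for 17 members with APX3330 higher (16.5%) and 2 with APX3330 lower (16%). Called higher were Oas2 by 1.73 ± 0.43 (adjusted p = 0.0144), Mx1 by 1.20 ± 0.24 (adjusted p = 0.00385), Psmb9 by 0.97 ± 0.27 (adjusted p = 0.0246), Stat2 by 0.93 ± 0.21 (adjusted p = 0.00858), Zbp1 by 0.86 ± 0.24 (adjusted p = 0.0234) and Tap1 by 0.82 ± 0.25 (adjusted p = 0.0365). The remaining 5 were Irf9 by 0.76 ± 0.13 (adjusted p = 0.00114), Gbp7 by 0.71 ± 0.20 (adjusted p = 0.0272), Oas1a by 0.68 ± 0.19 (adjusted p = 0.0242), Eif2ak2 by 0.60 ± 0.13 (adjusted p = 0.00533) and Parp14 by 0.55 ± 0.17 (adjusted p = 0.0451). Of these 11, all but Parp14 and Tap1 showed no overlap with Control.

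Only 4 of the 11, Mx1, Irf9, Stat2 and Eif2ak2, held without each library in turn. Oas2 was lost without Control replicate 2 or 3 (adjusted p of up to 0.0634), Psmb9 without Control replicate 1 or 2 or APX3330 replicate 1 (0.117) and Oas1a without Control replicate 2 or APX3330 replicate 1 or 3 (0.0918). Zbp1 was lost without Control replicate 1 or 2 or APX3330 replicate 1 or 3 (0.0834). Tap1 (0.149), Parp14 (0.171) and Gbp7 (0.102) were lost without Control replicate 2 or 3 or APX3330 replicate 1 or 3. The count was 4 without Control replicate 2 (5.47% of all genes) and 5 without APX3330 replicate 1 (6.77%). It was 7 without Control replicate 3 (4.43%) or APX3330 replicate 3 (4.56%), 10 without Control replicate 1 (3.71%) and 12 without APX3330 replicate 2 (4.48%). Without the libraries holding squamous transcripts the median was 0.84. That fit keeps Control replicate 2 alone, the lowest Control library for 34 members, and no conclusion is drawn from it. With no filter on low counts 27 were higher (4.48%) and 3 lower (5.32%), and with the leukocyte score as a covariate 4 were higher (4.66%).

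The counts against saline also turned on single libraries and on the test. Against D27, 1 member was lower without saline D27 replicate 1 (1.22% of all genes) or without APX3330 replicate 2 (1.43%). The count was 2 without APX3330 replicate 3 (1.43%) and 4 without saline D27 replicate 2 (1.19%). It was 17 without saline D27 replicate 3 (4.45%) and 18 without APX3330 replicate 1 (4.56%). Rsad2 held in every fit. Irf1 was lost without saline D27 replicate 1 or APX3330 replicate 2 (0.0648), Psmb8 without saline D27 replicate 1 or APX3330 replicate 2 or 3 (0.0526), and Gbp2 without saline D27 replicate 1 or 3 or APX3330 replicate 2 or 3 (0.0988). Irf7, Ifit2, Ifit3b, Oasl1, Isg15 and Ifi27l2a were lost without saline D27 replicate 1 or 2 or APX3330 replicate 2 or 3, with an adjusted p of up to 0.152 for Irf7.

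Against D48, Irf1, Psmb8 and Gbp2 held in every fit. Ifit3b was lost without saline D48 replicate 2 or APX3330 replicate 2 or 3 (0.0578). Ifit2, Oasl1, Parp14, Dtx3l and Psmb9 were lost without saline D48 replicate 2 or 3 or APX3330 replicate 2 or 3, with an adjusted p of up to 0.24 for Psmb9. The count was 3 without saline D48 replicate 2 (8.63% of all genes), without APX3330 replicate 2 (5.82%) or without APX3330 replicate 3 (6.74%). It was 4 without saline D48 replicate 3 (6.15%), 15 without APX3330 replicate 1 (8.69%) and 18 without saline D48 replicate 1 (7.86%). Without saline D48 replicates 2 and 3, the libraries with pancreatic transcripts, the median of the members was 0.09 in place of -0.38. That fit keeps saline D48 replicate 1 alone, the lowest library of its group for 43 members, and no conclusion is drawn from it.

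Against D100 the count was 0 without saline D100 replicate 3 (0.0534% of all genes) or without APX3330 replicate 2 or 3 (0.0267% for each). It was 2 without saline D100 replicate 1 (0.16%), 3 without saline D100 replicate 2 (0.0588%) and 5 without APX3330 replicate 1 (0.134%). None of the 5 genes held in every fit. Mx1 (0.08) and Rsad2 (0.088) were lost without saline D100 replicate 3 or APX3330 replicate 2 or 3. Ifit2 and Irgm1 (0.16 for each) were lost in 5 of 6 fits, all but that without APX3330 replicate 1, and Oasl1 (0.159) in all but that without saline D100 replicate 2. Without saline D100 replicate 1, Control replicate 1 and Control replicate 3, the libraries with squamous transcripts, 2 members were lower (0.113% of all genes).

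With DESeq2, 17, 10 and 13 members were lower than in saline D27, D48 and D100 (6.67%, 11.9% and 1.3% of all genes), and with no filter on low counts 28, 20 and 35, where 3.97%, 6.58% and 1.56% of all genes were. With the leukocyte score as a covariate none was lower in any of the 3 (0.249%, 1.09% and 0.0277% of all genes), and the medians were -0.34, -0.04 and -0.61. The score ran from -0.95 to -0.08 with APX3330, below every saline library, so here too the fit cannot separate it from the group. All 8 leukocyte markers were lower with APX3330 than in saline D48, 2 than in saline D27 and none than in saline D100.

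The interferon genes themselves were hardly detected. Of 21 ligand genes, 14 had no count in any library, and the other 7 had 23 counts in all, so none could be tested. Ifnb1 had 0 counts over the 15 libraries, which allows up to 0.0132 CPM at a floor of 3 counts (counting error only). Ifng, the interferon gamma gene, had 11 counts in 6 libraries, of which 1 fell to D27, 4 fell to D48 and 6 to D100, with 0 in Control and APX3330. Ifnk, an interferon of keratinocytes, had 6 counts, 4 of them in 1 saline D100 library. Ifnz had 2 counts, and Ifna2, Ifna6, Ifne and Ifnl2 had 1 each.

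Of 13 receptor and JAK-STAT genes, 2 were higher and 3 lower at D27, 5 and 3 at D48, 1 and 3 at D100, and 0 and 4 with APX3330, each against Control. Over all genes, the shares called higher and lower were 10.2% and 9.36% at D27, 14.3% and 13% at D48, 11.4% and 10.5% at D100, and 7.16% and 8.18% with APX3330, so that 2 of 13 higher at D27 and 1 of 13 at D100 are near those shares. Among those with the smallest p over the groups were Irf2, Ifngr1 and Ifngr2. Irf2, a factor that competes with IRF1, had 124, 124 and 124 CPM in Control, 84.6, 61.4 and 90.2 at D27, then 84.2, 90.0 and 89.9 at D48, then 73.3, 67.9 and 65.6 at D100 and 79.6, 69.9 and 85.0 with APX3330. Control lay above all other libraries, and Irf2 fell by 0.65 ± 0.12 (adjusted p = 0.00174), 0.49 ± 0.12 (adjusted p = 0.00577) and 0.84 ± 0.12 (adjusted p = 0.000157) in the order of day and by 0.66 ± 0.12 (adjusted p = 0.00169) with APX3330. Ifngr1 and Ifngr2, which encode the chains of the interferon gamma receptor, fell in the same 4 comparisons, Ifngr1 by 0.66 ± 0.12 (adjusted p = 0.00165) and Ifngr2 by 0.43 ± 0.09 (adjusted p = 0.00289) at D100.

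Of 16 tested genes that sense nucleic acids and induce interferon, 6 were higher than in Control at D27, then 10 at D48 and 9 at D100, while APX3330 had 2 higher and 1 lower. The shares higher over all genes were 10.2%, 14.3% and 11.4%, and the counts with APX3330 are near its 7.16% higher and 8.18% lower. Ikbke, a kinase that activates IRF3, rose by 0.75 ± 0.10 (adjusted p = 0.000162) at D100 and by 0.56 ± 0.10 (adjusted p = 0.00245) with APX3330. Tlr3, an endosomal receptor of double-stranded RNA, rose by 1.08 ± 0.16 (adjusted p = 0.000269) at D100 only among the saline groups, and also from D48 to D100 by 0.74 ± 0.16 (adjusted p = 0.00732). Irf5 and Sting1 rose at D48 by 1.21 ± 0.22 (adjusted p = 0.00098) and 0.91 ± 0.22 (adjusted p = 0.00641) and were lower with APX3330 than at D48, by -0.77 and -1.10 on the log2 scale.

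Of 10 feedback inhibitors, 5, 5, 3 and 3 were higher in saline D27, D48, D100 and APX3330 than in Control (10.2%, 14.3%, 11.4% and 7.16% of all genes), and 1 was lower at D27 (9.36% of all genes). The 4 with the smallest p were Nlrc5, Ptpn6, Adar and Socs1. Ptpn6, a phosphatase of blood cells, rose by 0.87 ± 0.23 (adjusted p = 0.0169) at D27 and 1.27 ± 0.23 (adjusted p = 0.00114) at D48. Nlrc5, which also drives MHC class I genes, rose by 1.99 ± 0.30 (adjusted p = 0.000528), 2.29 ± 0.30 (adjusted p = 0.000101) and 2.18 ± 0.30 (adjusted p = 0.000135) in the saline groups and by 1.31 ± 0.30 (adjusted p = 0.00816) with APX3330. Socs1, which blocks JAK kinases, rose by 1.74 ± 0.35 (adjusted p = 0.00357), 1.74 ± 0.35 (adjusted p = 0.00208), 1.90 ± 0.35 (adjusted p = 0.00141) and 1.26 ± 0.35 (adjusted p = 0.0261), and Adar, an RNA-editing enzyme that keeps own RNA from being sensed, rose in the same 4.

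A further list of 77 tested interferon-responsive genes outside the set had 43 higher and 0 lower at D27, 56 and 2 at D48, 39 and 0 at D100, and 12 and 3 with APX3330. Over all genes the shares higher were 10.2%, 14.3%, 11.4% and 7.16%, and the shares lower 9.36%, 13%, 10.5% and 8.18%. APX3330 against saline gave 18 lower at D27 (4.37% of all genes), 31 at D48 (10.3%) and 1 at D100 (0.2%). The 4 with the smallest p were Ifi47, Ifitm1, Phf11d and Tap2. Ifi47, an immunity-related GTPase, had 10.0, 7.96 and 9.25 CPM in Control, 54.0, 41.6 and 36.0 at D27, then 35.1, 48.2 and 66.5 at D48, then 64.4, 37.2 and 50.6 at D100 and 29.9, 22.6 and 23.2 with APX3330. All saline and APX3330 libraries exceeded Control, and Ifi47 rose by 2.48 ± 0.25 (adjusted p = 1.1e-05) at D100 and 1.47 ± 0.25 (adjusted p = 0.00123) with APX3330. Ifitm1, a restriction factor of virus entry, rose at D48 only, by 1.68 ± 0.23 (adjusted p = 0.000155), while Phf11d rose by 2.97 ± 0.33 (adjusted p = 2.85e-05) at D100. Tap2, the partner of TAP1, rose by 1.29 ± 0.19 (adjusted p = 0.000212) at D48 and fell from D48 to D100 by 0.68 ± 0.18 (adjusted p = 0.0222), and was lower with APX3330 than at D48 by -0.95 on the log2 scale.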

How the data were processed

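Total RNA of mouse colon was measured in 15 libraries of 5 groups. The authors deposited 1 table of raw whole-number counts for 56859 genes. Column extraction of RNA and SMARTER library preparation are stated per the labels' protocols, and the builds GRCm38 and mm10 per the submitters' processing notes. No aligner, counter or strand setting is given in the sources used here, and near-identical genes may share reads.

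The members and gene lists were chosen with earlier results of these data known. Samples were grouped by their labels. One edgeR 4.0.16 quasi-likelihood model (R 4.3.3, TMM, filterByExpr) covered the 15 libraries, for 10 pairwise comparisons and an F test, adjusted by Benjamini-Hochberg over 18038 genes. Calls have an adjusted p below 0.05. Of the genes in the table, 23552 had no count. An SE is the log2 fold change divided by the root of its F. CPM is from edgeR.

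Described singly were, per role, the members with the largest F statistic and the largest mean CPM, members called where at most 10 were called or against the main direction, and members never called. Stat2, Oas2, Gbp7, Dhx58 and the per-library ranges of Rigi were added after their values were seen. Of other lists, up to 4 genes with the smallest F-test p were named, and ligands with any count. One gene that this rule selects is not reported here.

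Alternatives were DESeq2 size factors, the DESeq2 test (1.42.0), no filter, the replicate number as a block, 2 groups only, a leukocyte score as a covariate, and fits without libraries holding squamous or pancreatic transcripts and without each library. Libraries of a group differed by more than counting noise. The fit was tested on simulated counts. Coordinates are from GENCODE M21 (GRCm38) and promoter sequences from RefSeq (GRCm38.p6). Figures used matplotlib 3.10.9 in Python 3.11.15.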

Additional observations from a re-analysis of the deposited data

How the results depend on the processing

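Of 1474 values of single genes under the alternatives, 1123 kept their direction and side of the threshold, 350 lost the call and 1 changed sign: Ifi27l2a at saline D48 against Control was -0.30 with the leukocyte score as a covariate. The cause of these changes was not tested. The leukocyte score did not overlap between Control, APX3330 and the saline libraries, so its fit cannot separate the score from these groups. Counts of members called moved as follows, with the share called over all genes in parentheses. With the leukocyte score as a covariate 0, 0 and 10 were higher at D27, D48 and D100 than in Control (0.621%, 0.449% and 3.43%). For APX3330 against Control 4 were higher (4.66%). None was lower for APX3330 against D27, D48 and D100 (0.249%, 1.09% and 0.0277%), for D48 against D27 (0.211%) or for D100 against D48 (3.07%). Over the 5 groups 17 differed, with no share computed. Without the libraries holding squamous transcripts they were 16, 17 and 25 against Control, 1 for APX3330 against Control, 2 lower for APX3330 against D100, 4 higher for D100 against D48, and 27 over the groups. Without those holding pancreatic transcripts saline D48 replicate 1 is left alone in its group. The medians were then 0.28 for D48 against Control and 0.09 for APX3330 against D48. They were -0.69 for D48 against D27 and 0.84 for D100 against D48. With no filter 27 were higher (4.48%) and 3 lower (5.32%) for APX3330 against Control. For APX3330 against D27, D48 and D100, 28, 20 and 35 were lower (3.97%, 6.58% and 1.56%). For D48 against D27, 10 were lower (1.05%). For D100 against D27, 3 were higher (1.59%) and 4 lower (1.97%), and for D100 against D48, 21 higher (3.72%) and 4 lower (4.85%). With the DESeq2 test 2 were lower for APX3330 against Control (9.66%) and 17 and 13 lower for APX3330 against D27 and D100 (6.67% and 1.3%). For D48 against D27, 2 were lower (1.71%), and for D100 against D27, 3 were higher (3.94%) and 1 lower (3.11%). With only the 2 groups in the fit 9 were lower for APX3330 against D100 (0.345%), 1 higher for D100 against D27 (0.962%) and 1 lower for D100 against D48 (5.26%). DESeq2 size factors moved no count.

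Replicate numbers did not pair the libraries: over 30 same-numbered pairs the correlation of deviations from the group means ran from -0.14 to 0.25, with 2 above 0.1, and 3 of 15 libraries correlated best with their own number. With the replicate number as a block, D100 against D48 gave 1 lower (5.86% of all genes) in place of 2 (6.4%). No other count moved by more than 1.5 times. Leaving out 1 library at a time gave 25 to 35 (D27), 17 to 33 (D48) and 34 to 39 (D100) higher than Control. The shares over all genes were 5.45% to 9.39%, 10.2% to 11.8% and 7.33% to 9.42%. APX3330 against Control gave 4 to 12 higher (3.71% to 6.77%) and 0 to 1 lower (4.21% to 7.05%). APX3330 against D27, D48 and D100 gave 1 to 18, 3 to 18 and 0 to 5 lower (1.19% to 4.56%, 5.82% to 8.69% and 0.0267% to 0.16%). D48 against D27 gave 0 lower (0.0267% to 0.486%) and D100 against D27 gave 0 to 1 higher (0.0747% to 2.75%). D100 against D48 gave 4 to 7 higher (3.76% to 4.99%) and 0 to 2 lower (3.34% to 5.75%). Over the groups 37 to 44 differed, with no share computed. Where 1 library is left in a group, it is assumed to vary like the others. The ligands were too low to test.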
